A study of Mus musculus with 6 samples.

Results

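Transcript levels of 8 membrane-anchored metalloproteinases of the ADAM family (Adam8, Adam9, Adam10, Adam12, Adam15, Adam17, Adam19 and Adam33) were examined in primary mouse chondrocytes after knockdown of Pkm2. The 8 genes were taken by name from a deposited table of 55416 genes, in which 34 genes are named Adam followed by a number. All 8 were among the 15269 genes that passed edgeR's filter on low counts. The set was chosen by its levels in these same siNC and siPkm2 libraries, so the levels and fold changes of its members are a description and carry no test. RNA was sequenced from chondrocytes given a scrambled control siRNA (siNC, 3 libraries) or an siRNA against Pkm2 (siPkm2, 3 libraries), grown in DMEM/F12 with serum. The labels give the knee joints of newborn mice as the source of the cells, whereas the supplementary methods describe mice several weeks old. The genotype label is WT for siNC and a PKM2 knockdown for siPkm2 replicate 1, and it names PKM3 and PKM4 for siPkm2 replicates 2 and 3, which were taken as siPkm2 from their titles. Nothing in the labels says that the libraries of a group came from separate cultures or animals, so p-values measure the spread between these samples, which may be technical.

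ADAM proteins span the cell membrane and hold a zinc-dependent protease domain outside the cell. They cut other membrane proteins close to the membrane, which is called ectodomain shedding, and so release growth factors, cytokines and receptor domains. ADAM10 is the main sheddase of Notch receptors and of several cadherins, and ADAM17 releases tumour necrosis factor, ligands of the EGF receptor and cytokine receptors. Pkm2 is a splice form of Pkm, which encodes pyruvate kinase, the last enzyme of glycolysis.

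The knockdown was seen at the targeted gene, with Pkm at 2335, 2746 and 1674 CPM in siNC (replicates in the order 1, 2 and 3, as throughout) and at 336, 541 and 309 CPM in siPkm2. Here CPM is the count scaled to a common library total after TMM scaling. Libraries held between 22316996 and 25691029 counts. Same-numbered libraries varied together, and replicate 2 of both groups stood apart on the first principal component, which held 54.2% of the variance. The summed level of 9 chondrocyte markers was 10210.0 and 14205 CPM in siNC and siPkm2 replicate 2, and lay between 39808 and 47770.3 CPM in the other 4 libraries. Each of the 9 exceeded 1 CPM in at least 1 library. Of 4 endothelial markers, Pecam1, Cdh5 and Kdr were below 1 CPM in every library. Tek exceeded 1 CPM only in siPkm2 replicate 2, at 1.01 CPM. Of 4 muscle markers, Myod1 and Myog were below 1 CPM in every library, while Des and Acta1 were not. Des was at 0.601, 3.44 and 0.744 CPM in siNC and at 4.75, 6.93 and 10.6 CPM in siPkm2, without overlap. Acta1 was at 4.48, 0.971 and 3.20 CPM in siNC and at 0.979, 0.739 and 0.823 CPM in siPkm2, with overlap. The summed level of 6 fibroblast and synovial markers was 8611, 8447 and 15650 CPM in siNC and 5794, 10205 and 11595 CPM in siPkm2. That of 5 osteoblast markers lay between 73.8 and 479 CPM in siNC and between 80.1 and 208 CPM in siPkm2. In bulk RNA, fewer cells of a type and less RNA per cell cannot be told apart.

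Adam10 and Adam17, the best known sheddases of the family, were both lower in every siPkm2 library than in every siNC library. Adam10 (ENSMUSG00000054693, chromosome 9, 70678997 to 70780229 on GRCm38, plus strand) was at 130.2, 98.5 and 134 CPM in siNC and at 40.1, 36.2 and 41.4 CPM in siPkm2. The siPkm2 libraries lay close together and far below the lowest siNC library, which was replicate 2. The level left in siPkm2 was 30.8%, 36.7% and 30.9% of siNC in pairs 1, 2 and 3, and the log2 fold change was -1.62 (SE 0.16, n = 3 against 3, edgeR's fit over all genes tested). Under the replicate block, that is with the replicate number as a term of the fit, it came to -1.61, and in pairs 1 and 3 alone it was -1.71. By size, Adam10 was number 193 of the 15269 genes from the most lowered, behind the members Adam33 (number 111) and Adam8 (number 151).

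Adam17 (ENSMUSG00000052593, chromosome 12, 21323509 to 21373632, minus strand) was at 76.8, 99.8 and 78.4 CPM in siNC and at 31.8, 49.0 and 36.1 CPM in siPkm2. Replicate 2 was the highest library of each group, the reverse of Adam10, and the groups did not overlap. The level left was 41.5%, 49.1% and 46.0% of siNC in pairs 1, 2 and 3. The log2 fold change was -1.12 (SE 0.21), and -1.20 in pairs 1 and 3 alone. Both genes had deep counts, with at least 683 reads in every library for Adam17 and 861 for Adam10.

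**Figure D1:**
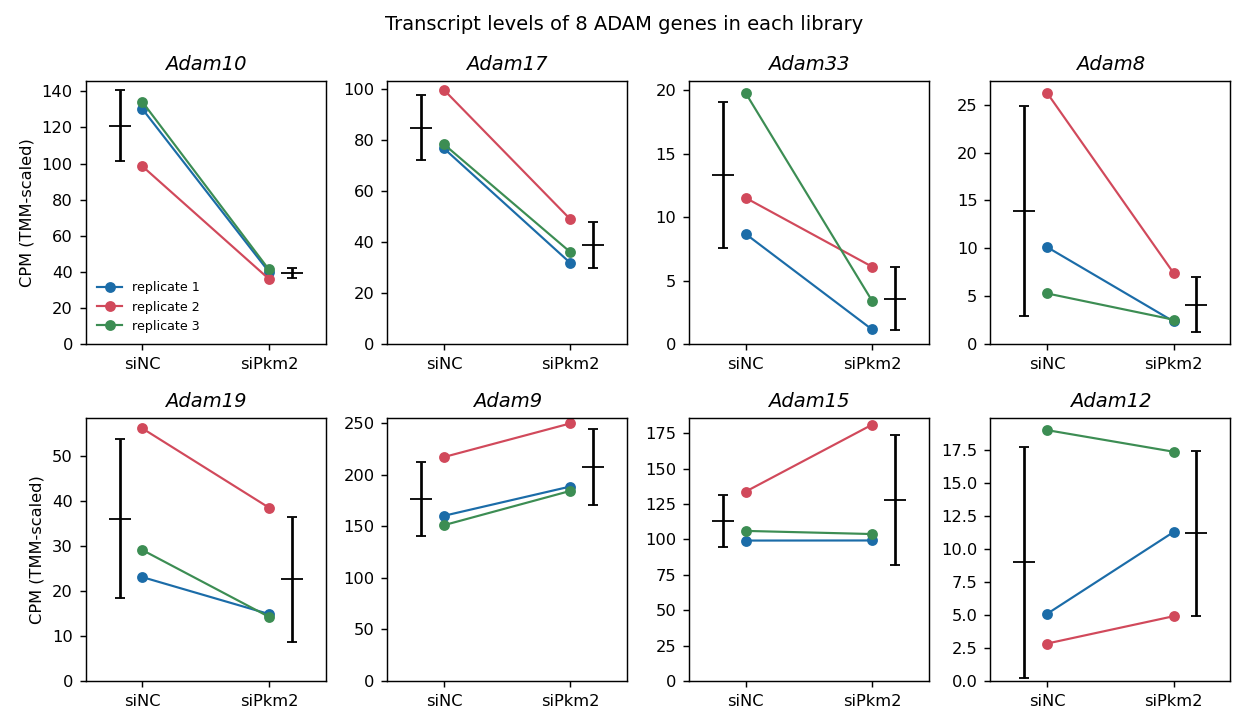
Level of each ADAM gene (vertical axis, CPM, starting at 0) in siNC and siPkm2, with 1 coloured point per library, lines joining libraries of the same replicate number, and black marks for the group mean ± SD (n = 3). Adam10, Adam17 and Adam33 show siPkm2 points below all siNC points, and Adam9 is higher in siPkm2 along all 3 lines.

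Both transcripts carry letters that match the seed of an siRNA in the study's supplement, and these are shown for the best known sheddases of the family. The seed is the stretch of the guide strand from base 2 to base 8, printed in capitals in the guide, and the bases that pair with it are in capitals in the sites. The paper does not say which of its 3 siPkm2 molecules went into the sequenced cells, although its supplement says that the third was selected for the study and its methods name siPkm2 #3 for injection into knees.
siPkm2 #3 guide: uGUUUCUCcagacagcaug
Adam10 site, chr9:70778151-70778157: cttcactccaaaGAGAAACctgttaagtc
Adam10 site, chr9:70779617-70779623: ccaaaaccgctaGAGAAACaatgggatct
Adam17 site, chr12:21325184-21325190: ttataatgatctGAGAAACggggaagcaa
Adam17 site, chr12:21324826-21324832: aaagaggagcaaGAGAAACctgcttgtat
The sequences run along the strand of the transcript, and lie in the 3′ untranslated region, the longest that is annotated for the gene (Adam10-201, 2135 bases, and Adam17-202, 1767 bases; GENCODE M21 on GRCm38), and coordinates are of the capitals.

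The letters GAGAAAC are common. They occur at least once in the longest 3′ untranslated region of 16.4% of 13202 tested genes. The share is 21.8% of genes with a region about as long as that of Adam10, and 17.7% for Adam17. How many genes hold 2 sites, as these members do, was not counted. Among the other members, Adam33 held 2 sites, but only in a short annotated transcript (Adam33-210, 1117 bases) and in none of its 3 other coding transcripts with such a region. Adam12 held 1 site in a region of 4743 bases, where 39.6% of genes of like length hold it. Adam8, Adam9, Adam15 and Adam19 held none. The site of siPkm2 #1 (TGTACCA, in 10.9% of genes) was found 3 times in Adam12, that of siPkm2 #2 (AAGAATG, 15.9%) once in Adam33, and that of the control siRNA (TGTCACG, 3.08%) once in Adam12. Only the transcript strand was searched, no motif is contained in another, and a match in letters is no evidence of binding. Whether any site bears on these levels was not tested.

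Adam33, Adam19 and Adam12 are relatives known from other settings, ADAM33 from asthma, and ADAM19 and ADAM12 as the meltrins β and α of muscle and heart. Adam33 (ENSMUSG00000027318, chromosome 2, 131050591 to 131063814, minus strand) was at 8.69, 11.5 and 19.8 CPM in siNC and at 1.16, 6.11 and 3.43 CPM in siPkm2. The groups did not overlap, but the log2 ratio ran from -2.46 in pair 1 to -0.86 in pair 2, and siPkm2 replicate 1 rested on 25 reads. The log2 fold change was -1.90 (SE 0.62), and -2.63 in pairs 1 and 3 alone.

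Adam19 (ENSMUSG00000011256, chromosome 11, 46055992 to 46147343, plus strand), which cuts neuregulin, was at 23.1, 56.1 and 29.1 CPM in siNC and at 14.9, 38.5 and 14.3 CPM in siPkm2. It was lower in each pair, yet siPkm2 replicate 2 lay above siNC replicates 1 and 3, so the groups overlapped. The log2 fold change was -0.68 (SE 0.51), and -0.73 (SE 0.13) with the replicate block.

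Adam12 (ENSMUSG00000054555, chromosome 7, 133883199 to 134232146, minus strand), which cuts insulin-like growth factor binding proteins, was at 5.09, 2.83 and 19.0 CPM in siNC and at 11.3, 4.90 and 17.4 CPM in siPkm2. Replicate 3 was highest in both groups, and the pairs differed in sign. Which pair fell depended on the measure. In CPM it was pair 3, and in TPM it was pair 2, from 1.36 to 1.16, while pair 3 rose from 4.52 to 4.78. Without the block, the log2 fold change of 0.32 (SE 0.77) was smaller than its error. With the replicate block the log2 fold change was 0.57 (SE 0.27). Fits without the block gave -0.10 without siNC replicate 2, -0.14 without siPkm2 replicate 3 and 1.498 without siNC replicate 3.

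Adam9 and Adam15 have disintegrin domains that bind integrins, and loss of ADAM15 is known to bring cartilage damage in ageing mice. Adam9 (ENSMUSG00000031555, chromosome 8, 24949611 to 25016927, minus strand) was at 160.2, 217 and 151 CPM in siNC and at 189, 249.8 and 184 CPM in siPkm2. It was higher in each pair, by log2 ratios of 0.23, 0.20 and 0.29, while the groups overlapped because replicate 2 was high in both. Its log2 fold change was 0.24 (SE 0.21), and 0.24 (SE 0.08) with the replicate block.

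Adam15 (ENSMUSG00000028041, chromosome 3, 89338542 to 89349996, minus strand) was at 99.2, 134 and 106 CPM in siNC and at 99.2, 181 and 104 CPM in siPkm2. Pairs 1 and 3 were nearly level, and the log2 fold change of 0.18 (SE 0.27) came from pair 2. In pairs 1 and 3 alone it was -0.02.

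Adam8 is a protease best known from myeloid cells. Adam8 (ENSMUSG00000025473, chromosome 7, 139978932 to 139992562, minus strand) was at 10.1, 26.2 and 5.30 CPM in siNC and at 2.38, 7.43 and 2.56 CPM in siPkm2. It was lower in each pair, at 23.5%, 28.3% and 48.3% of siNC, but siPkm2 replicate 2 lay above siNC replicate 3. The log2 fold change was -1.75 (SE 0.72), -1.67 (SE 0.23) with the replicate block, and -1.65 in pairs 1 and 3 alone. The summed level of 6 macrophage markers was 8.69, 75.9 and 8.36 CPM in siNC and 19.8, 62.0 and 12.9 CPM in siPkm2, so it was also highest in replicate 2 of each group. Of these markers, Ptprc and Adgre1 were below 1 CPM in every library. Their part in the level of Adam8 was not tested.

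**Figure D2:**
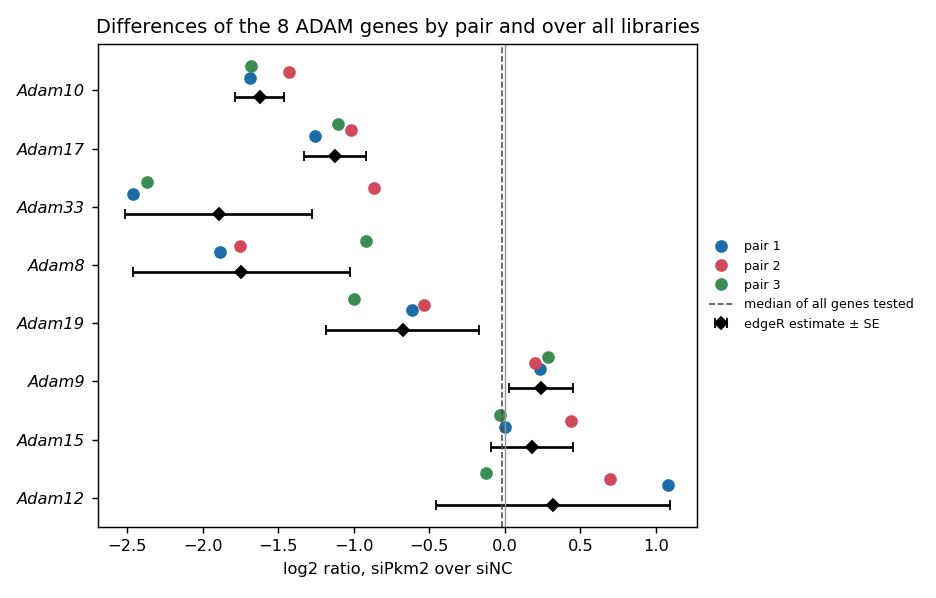
The log2 ratio of siPkm2 over siNC (horizontal axis) for each ADAM gene, with coloured points for the 3 pairs of same-numbered libraries, black diamonds for the edgeR estimate over all 6 libraries with its standard error, and a dashed line at the median of all genes tested (-0.02). The points of Adam9, Adam17 and Adam10 lie closest together, while those of Adam33, Adam8 and Adam12 spread widely.

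As a group, 5 of the 8 members (Adam8, Adam10, Adam17, Adam19 and Adam33) were lower in all 3 pairs, which 30.6% of all genes tested were, and Adam9 was higher in all 3, as 30.5% were. In 3 members the groups did not overlap with siPkm2 lower (12.3% of all genes), and in none with siPkm2 higher (12%). The median log2 fold change was -0.90 over the 8 members and -0.02 over all genes tested. These counts describe genes selected on this contrast, and nothing is read from them.

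By edgeR's quasi-likelihood test without a block, no gene passed an adjusted p of 0.05, with a fold over 2 (0% of 15269) or at any fold (0%), although 1403 genes were lower and 1287 higher at an unadjusted p under 0.05. With the replicate block, the same test called 10.8% of genes lower and 12.3% higher, of which 3.18% and 2.65% of genes had a fold over 2. DESeq2, fitted without the block, called 2.86% lower and 2.45% higher of the 15545 genes to which it gave an adjusted p. In pairs 1 and 3 alone edgeR called 1.79% lower and 2.81% higher, and with the block 19.3% and 19.8%, where a single residual degree of freedom remained. With the block, 5 members were among the genes called lower at any fold, 4 of them with a fold over 2, and DESeq2 called 3 of them. None was called higher. As the set was selected on these values, this adds no evidence.

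Per length, the levels formed 3 tiers. TPM, which divides by transcript length, was highest in siNC for Adam15 (73.6 ± 18.7, SD, n = 3) and Adam9 (72.8 ± 19.1), whose ranges overlapped. Next came Adam10 (43.3 ± 5.94) and Adam17 (32.2 ± 6.48), which overlapped each other but not Adam9 above or Adam19 below. Adam19 (9.62 ± 5.44), Adam33 (8.35 ± 2.73), Adam8 (7.89 ± 6.68) and Adam12 (2.29 ± 1.94) made up the lowest tier, in which each gene overlapped the next. In siPkm2, Adam15 (83.4 ± 33.7 TPM) and Adam9 (82.6 ± 17.5 TPM) stayed at the top, and Adam17 (14.4 ± 3.67 TPM) and Adam10 (13.8 ± 0.437 TPM) again overlapped each other and no neighbour.

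The sum of the 8 members was 207, 307 and 236 TPM in siNC and 169, 276 and 177 TPM in siPkm2. It was lower in siPkm2 in each pair, but the groups overlapped. Adam10 took 20.9%, 12.2% and 20.9% of the sum in siNC and 7.94%, 4.94% and 8.05% in siPkm2. Adam17 took 12.9% ± 0.102 in siNC and 6.98% ± 0.576 in siPkm2 (SD, n = 3), a share that hardly moved among the siNC libraries although the level of the gene did. The TPM of Adam10 over that of Adam9 was 0.631 ± 0.208 in siNC and 0.171 ± 0.0338 in siPkm2, and that of Adam17 over Adam15 was 0.441 ± 0.0218 and 0.179 ± 0.0297 (SD, n = 3).

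**Figure D3:**
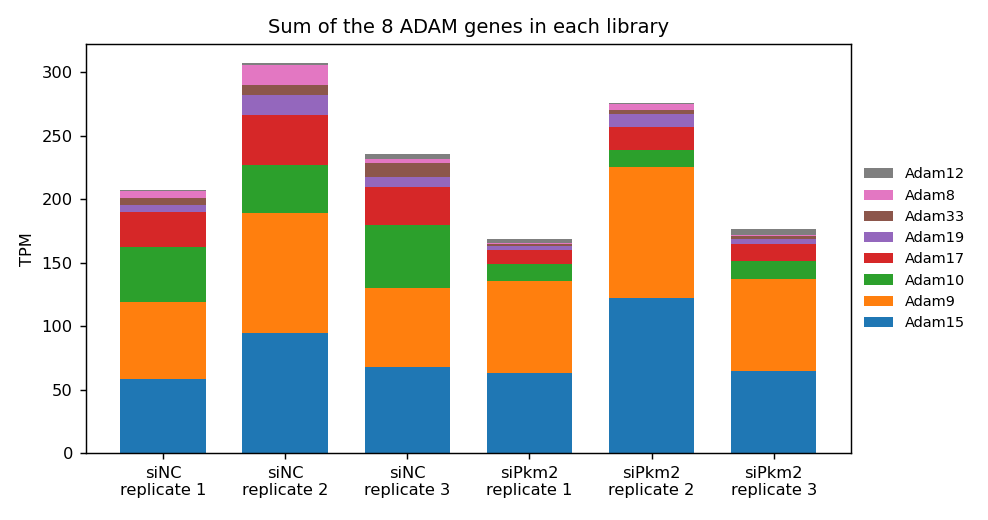
Deposited TPM of the 8 ADAM genes stacked for each library (vertical axis, TPM, starting at 0). The sums run from 169 to 307 TPM, and the Adam9 and Adam15 blocks fill most of each bar in both groups. The Adam10 and Adam17 blocks are thinner in every siPkm2 bar than in every siNC bar.

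The ratio of the deposited count to the deposited TPM grows with the length of the transcripts that reads were assigned to, and was not used to choose the members. It was taken relative to the median gene of each library, where a gene at 1 has the median implied length. For Adam10 it was 1.78 ± 0.0132 in siNC and 1.77 ± 0.0553 in siPkm2 (SD, n = 3), a log2 difference of -0.01 (SE 0.03, adjusted p = 0.999, limma over 10315 genes with at least 100 counts in every library). Adam17 stood at 1.70 in both groups, Adam9 at 1.56 and 1.57, Adam15 at 0.995 and 0.966, and Adam19 at 2.47 and 2.54. None of the 10315 genes passed by limma (lowest adjusted p = 0.196), and 711 had an unadjusted p under 0.05. Adam8, Adam12 and Adam33 had fewer counts and entered only a fit with at least 20 per library. The implied length of Adam12 ran from 1.42 to 3.05 and that of Adam33 from 0.605 to 1.15 across libraries, without separating the groups.

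Of the 26 other genes named Adam and a number, 6 passed the filter on low counts. Adam22, a catalytically inactive family member known from synapses, was at 17.0, 5.95 and 20.4 CPM in siNC and at 4.89, 2.22 and 5.58 CPM in siPkm2. The highest siPkm2 library fell short of the lowest siNC library, and the log2 fold change was -1.77 (SE 0.55, adjusted p = 0.189 without and 0.0109 with the replicate block, edgeR). Adam23, likewise inactive as a protease, was at 13.4, 58.2 and 55.3 CPM in siNC and at 5.41, 20.3 and 34.3 CPM in siPkm2. It was lower in each pair with overlapping groups, at a log2 fold change of -1.08 (adjusted p = 0.517 without and 0.0167 with the block, edgeR). Adam1a, Adam3, Adam5 and Adam11 lay at 5.07 CPM or below in every library and passed in neither fit. The siPkm2 #3 site was found once in the 3′ untranslated region of Adam22 and of Adam1a, 2 times in that of Adam23, and not in the other 3.

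The genes whose levels followed Adam10 most closely over the 6 libraries, by Pearson's r of log2(CPM + 0.5), were Cnot8 (1.00), Wdr83os (0.998) and Mcrip2 (0.998). Cnot8 is a deadenylase of the CCR4-NOT complex. Pkm stood at r = 0.915, which was place 520 among 15268 genes, and Adam17 at 0.863, place 973. Adam33 reached 0.794 and Adam8 0.553, and Adam9 was lowest at -0.635. These libraries share 2 groups and 3 pairs, so the values only describe the order.

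Genes whose products mature or escort these sheddases had a median log2 fold change of 0.27, against -0.02 over all genes tested. The list holds the tetraspanins that escort ADAM10, the iRhoms (Rhbdf1, Rhbdf2) and Frmd8 that escort ADAM17, and the convertases that remove the propeptide of both. Of 13 tested genes of 14, 0 passed by edgeR without the block, 3 were higher and 0 lower at an unadjusted p under 0.05, and DESeq2 called 0. With the block, Furin, Pcsk7, Frmd8 and Rhbdf2 passed, all higher, where 12.3% of all genes tested were higher and 10.8% lower. At an unadjusted p under 0.05 by edgeR without the block, 1287 of the 15269 genes were higher and 1403 lower. The lists were chosen with earlier results of these data known, so no count is read as particular to a list, here or below.

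Furin, the main propeptide convertase, was at 125, 163 and 168 CPM in siNC and at 212, 234 and 246 CPM in siPkm2. The groups did not overlap, and the log2 fold change was 0.60 (SE 0.17, adjusted p = 0.168 without and 0.016 with the block, edgeR). Pcsk7, another convertase, had a log2 fold change of 0.38 (adjusted p = 0.233 and 0.0451, edgeR). Frmd8 was at 59.6 ± 22.8 CPM in siNC and 96.0 ± 14.4 CPM in siPkm2 (SD, n = 3; adjusted p = 0.275 and 0.0273, edgeR). Rhbdf2, which was picked out after its values were seen, was at 12.7, 72.3 and 10.6 CPM in siNC and at 31.2, 89.4 and 36.7 CPM in siPkm2, with replicate 2 far above the others in both groups. Its log2 fold change was 0.72 over all libraries (adjusted p = 0.71, edgeR without the block) and 1.54 in pairs 1 and 3 alone (adjusted p = 0.0269, edgeR). Tspan33, an escort of ADAM10, was at 1.28 CPM or below everywhere, with adjusted p-values of 0.308 and 0.105 (edgeR, without and with the block). The other tested Tspan genes of the list, named after their values were seen, did not share the rise of the convertases. Tspan14 had -0.34 (adjusted p = 0.344 and 0.093, edgeR), with all siPkm2 libraries below all siNC libraries, as in 12.3% of all genes. Tspan5, Tspan15 and Tspan17 had -0.10, 0.14 and 0.05 with overlapping groups.

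Among the inhibitors, the 5 genes Timp1, Timp2, Timp3, Timp4 and Reck, 0 passed by edgeR without the block, 0 at an unadjusted p under 0.05 and 0 by DESeq2. Reck, a membrane-anchored inhibitor, passed with the block, where 12.3% of all genes were higher. Its log2 fold change was 0.48 (SE 0.26, adjusted p = 0.397 without and 0.0268 with the block, edgeR). Timp1, Timp2 and Timp3 had log2 fold changes of 0.37, 0.22 and 0.09 with overlapping groups, and Timp4 had -0.84 at 2.54 CPM or below in each library. Timp3 had the highest level of the list, with means of 3148 CPM in siNC and 3349 CPM in siPkm2.

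γ-Secretase cuts the membrane stubs that sheddases leave. Of its 7 subunit genes 0 passed by edgeR without the block, 1 was lower and 2 were higher at an unadjusted p under 0.05, and DESeq2 called Ncstn. With the block 2 passed, both higher, Ncstn among them, where 12.3% of all genes were higher and 10.8% lower. Ncstn, which encodes nicastrin, the substrate receptor of the complex, was at 131, 139 and 155 CPM in siNC and at 252, 229 and 260.2 CPM in siPkm2. Every siPkm2 library exceeded every siNC library, at a log2 fold change of 0.80 (SE 0.14, adjusted p = 0.104 without and 0.0118 with the block, edgeR). Aph1a at 0.28 and Aph1c at -1.05 passed in neither fit, and the median of the 7 genes was 0.13.

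Of the other membrane-bound sheddases, the BACE enzymes and membrane-type matrix metalloproteinases, 6 of 8 were tested. By edgeR without the block 0 passed, 2 were higher at an unadjusted p under 0.05, and DESeq2 called both, Mmp14 and Mmp16. With the block Mmp14, Mmp16 and Mmp17 passed, all higher, where 12.3% of all genes were higher and 10.8% lower. Mmp14, a collagenase that also activates proMMP2, was at 335, 374 and 417 CPM in siNC and at 504, 578 and 644 CPM in siPkm2. The groups did not overlap, and the log2 fold change was 0.61 (SE 0.18, adjusted p = 0.177 without and 0.0142 with the block, edgeR). Mmp16 had a log2 fold change of 0.89 (adjusted p = 0.154 and 0.0112, edgeR) and Mmp17 of 1.10 at levels under 8 CPM (0.314 and 0.025, edgeR). Mmp15, at -0.78, passed in neither fit. The median of the 6 tested genes was 0.18.

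The substrates of ADAM sheddases had a median log2 fold change of 0.04, against -0.02 over all genes tested. Of 46 tested genes of 53, 0 passed by edgeR without the block, 2 were lower and 1 higher at an unadjusted p under 0.05, and DESeq2 called Il6ra. With the block 8 of the 46 were higher and 4 lower, where 12.3% and 10.8% of all genes were, so no share is read as particular to the list. Il6ra, the interleukin 6 receptor, was at 4.40, 23.1 and 6.57 CPM in siNC and at 45.8, 66.5 and 56.7 CPM in siPkm2. No libraries overlapped, and the log2 fold change was 2.31 (SE 0.63, adjusted p = 0.161 without and 0.0156 with the block, edgeR). It is a known substrate of both ADAM10 and ADAM17. The siPkm2 #3 site lay in the 3′ untranslated region of 9 of the 46 substrates, where 16.4% of 13202 tested genes held it. These 9, listed for the site alone, were Cdh11, Alcam, Il6ra, Kitl, Notch2, Ddr1, Tgfbr1, Nectin1 and Igfbp5. In the other lists Tspan5, Pcsk5, Timp3, Aph1b, Aph1c, Bace2 and Mmp17 held it. Sdc4, a heparan sulfate proteoglycan of the chondrocyte surface, was at 302, 673 and 293 CPM in siNC and at 587, 1127 and 696 CPM in siPkm2. Its groups overlapped through siNC replicate 2, and the log2 fold change was 0.93 (adjusted p = 0.321 and 0.0133, edgeR).

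Jag1, a Notch ligand, had a log2 fold change of -0.57 (SE 0.21, adjusted p = 0.235 without and 0.0485 with the block, edgeR), with all siPkm2 libraries below all siNC libraries. Cx3cl1, Notch3 and Tgfbr1, named after their values were seen, were the other 3 genes lower with the block. Efna2, an ephrin, had -0.92 and passed in neither fit. In pairs 1 and 3 alone, without the block, edgeR called 4 substrates, 2 partners, 1 γ-secretase subunit and 1 other sheddase, all higher, and 0 inhibitors. Of all genes tested there, 2.81% were called higher and 1.79% lower.

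**Figure D4:**
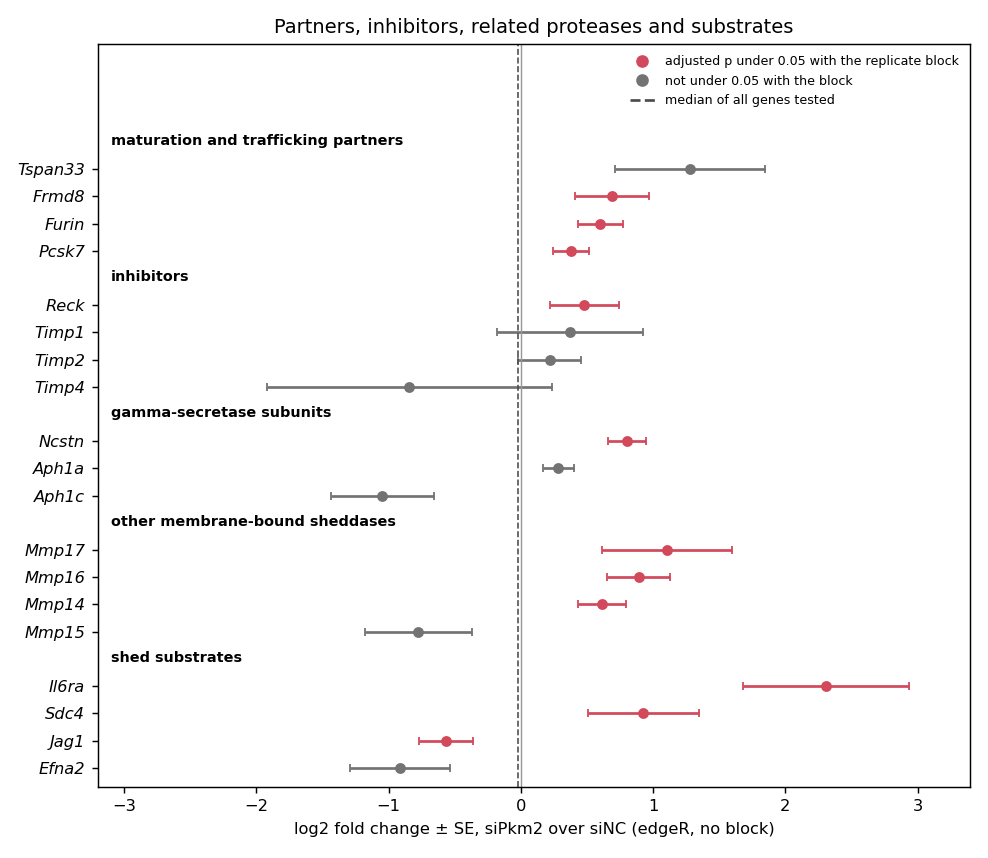
Log2 fold change with standard error (horizontal axis, edgeR without a block) of the tested genes with the lowest unadjusted p in each of 5 lists, 4 per list and 3 for γ-secretase. Red marks genes with an adjusted p under 0.05 once the replicate number was a block, which were higher in siPkm2 except Jag1, and the dashed line marks the median of all genes tested.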

How the data were processed

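RNA-seq data of 6 libraries were analysed from one deposited table and 6 deposited per-library TPM files, whose values were identical to the table's columns. Per gene and library, the authors deposited an estimated count, partly fractional and without normalization, and a TPM value. The table's columns of the authors' own comparison (among them a fold change as a ratio, its log2 value and a p-value) and the mean TPM of each group were not used. The submitters' processing notes name mm9 and edgeR, and the aligner, counter and annotation are not given in the sources used here. The files' Ensembl IDs were matched to GENCODE M21 for positions, transcripts and 3′ untranslated regions on GRCm38, and siRNA sequences were read from the supplement.

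Estimated counts were rounded and fitted in R 4.3.3 with edgeR 4.0.16 (filterByExpr, TMM, quasi-likelihood test, Benjamini-Hochberg adjustment over all genes tested, threshold 0.05). Implied lengths were fitted with limma 3.58.1. Alternatives were DESeq2 1.42.0, RLE and upper-quartile factors, a filter of at least 10 counts in every library or none, each library left out, log2(TPM + 0.1) and log2(TPM + 1), and the replicate number as a block. Chosen after seeing the data was the use of pairs 1 and 3 alone. The same replicate numbers in both groups pair the libraries: deviations from the group means correlated at 0.72, 0.79 and 0.72 between libraries of the same number and at 0.22 or below otherwise. Members and lists were chosen with earlier results of these data known. Named were all members, Pkm, in each list the 4 genes with the lowest unadjusted p, other tested ADAM genes, and the 3 genes most like Adam10; 1 gene that this rule named is not reported here. In the tests over all genes, 1492 genes with a blank name were kept under their IDs. The programs were tested on simulated data that held no effect of the replicate number. No fit with the replicate block was simulated, so those tests say nothing about the difference between the fits. Between 52.6% and 72.8% of genes differed beyond sampling noise between libraries of a group, so none was a duplicate.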

Additional observations from a re-analysis of the deposited data

How the results depend on the processing

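Adam10 stayed lower under all 16 alternatives, between -1.75 and -1.54 on the log2 scale, a range also reached by leaving out single libraries. Adam17 (-1.32 to -0.99), Adam33 (-2.68 to -1.48), Adam8 (-2.49 to -0.90) and Adam19 (-1.30 to -0.20) kept their sign, Adam9 stayed between 0.09 and 0.42, Adam15 changed sign under 3 alternatives and Adam12 under 2 (-0.14 to 1.498). The members were selected on this contrast, and the groups of Adam10, Adam17 and Adam33 did not overlap. Leaving out a library could therefore hardly change their sign, and a kept sign adds no evidence. Counts of calls depended on the fit. Lists are counted at any fold, and all genes at any fold and with a fold over 2. With all libraries, TMM factors and the filter, edgeR without a block called 0 genes by either rule. The replicate block called 3524 genes at any fold, 890 of them with a fold over 2, and at any fold 4 partners, 1 inhibitor, 2 γ-secretase subunits, 3 other sheddases and 12 substrates. DESeq2 called 444 genes lower and 381 higher at any fold and 428 with a fold over 2, and at any fold 1 γ-secretase subunit, 2 other sheddases and 2 substrates, 1 of them outside the filter of edgeR. Genes called with a fold over 2 were 9 without a filter, 3 with at least 10 counts in every library and 3 with upper-quartile factors. With single libraries left out they ran from 0 to 105, the highest without siNC replicate 2, which also gave 1 substrate where the others gave 0. In pairs 1 and 3 alone 699 genes were called at any fold and 507 with a fold over 2, and at any fold 2 partners, 1 γ-secretase subunit, 1 other sheddase and 4 substrates. With the replicate block these were 5941 genes at any fold, 1639 with a fold over 2, and at any fold 7 partners, 2 inhibitors, 4 γ-secretase subunits, 4 other sheddases and 26 substrates. The cause of these differences between fits was not tested. No alternative called a gene by implied length, the replicate block included (0 genes). Adam33 in siPkm2 replicate 1, at 25 counts, and Adam12 and Adam8, as low as 70 and 51 counts, are limited by depth.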
